A study of Mus musculus with 27 samples.

Results

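The 32 genes described here are the mouse genes of cholesterol and fatty acid synthesis that were chosen by name and are present by symbol among the 24062 symbols of the deposited count table. They comprise 18 enzymes of the sterol pathway, 5 genes for the SREBP transcription factors and their regulators, the sterol carrier Stard4 and 8 enzymes that make, lengthen or desaturate fatty acids. All 32 passed the filter on low counts in every fit, in which between 14046 and 16364 genes were tested.

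RNA was sequenced from 27 C57BL/6 libraries of a study on the cell cycle transcription factor FoxM1, in 9 groups of 3. Of these, 21 came from mouse embryonic fibroblasts (MEFs), primary cells of early passage that were growing asynchronously at about 90% confluence, and 6 from whole lungs of mice aged 10 days. Experiment 1 of the fibroblasts held libraries labelled KO-NTD, KO and WT, and experiment 2 held libraries labelled Het-NTD, Het, WT-NTD and WT. The lungs were labelled Het and WT. The labels name no allele and do not say what NTD stands for, nor what separated the experiments. They do not say whether the 3 libraries of a group came from separate embryos, animals or cultures, so the p-values measure the spread between these libraries, which may be technical.

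Cholesterol is built from acetyl-CoA through mevalonate and squalene, and most enzymes of that chain are switched on together by SREBP-2, the product of Srebf2. Fatty acid enzymes answer mainly to SREBP-1, the product of Srebf1. Both factors are held in the endoplasmic reticulum by the sterol-sensing escort Scap and its anchors Insig1 and Insig2, and are released when membrane sterol falls. Growing fibroblasts need new membrane, whereas in lung the alveolar type 2 cells make fatty acids for surfactant.

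Library totals ranged from 29730693 to 69517834 counts (median 42708114), and the lowest count of any member in any library was 230. Foxm1 itself did not go with the KO label: it had 146 ± 6.64 CPM (counts scaled to library size) in the libraries labelled KO and 136 ± 3.34 CPM in WT (SD, n = 3 each; edgeR adjusted p = 0.565). In the libraries labelled Het it had 129 ± 2.63 CPM, against 147 ± 1.99 CPM in WT of experiment 2 (SD, n = 3 each; edgeR adjusted p = 0.249). The NTD libraries held more: 362 ± 28.2 CPM in KO-NTD, 347 ± 34.4 CPM in Het-NTD and 346 ± 56.9 CPM in WT-NTD (SD, n = 3 each). Which part of the transcript a deletion would remove is not given, so a whole-gene count may not check it, and the groups are called by their labels throughout. The fibroblast libraries also differed in transcripts of 15 macrophage markers, whose summed level ran between 11.1 and 424 CPM in the 21 fibroblast libraries. Markers went with the tissues: 8 fibroblast markers summed to between 32583 and 53442 CPM in the fibroblast libraries, and 11 alveolar type 2 markers to between 20849 and 29538 CPM in the lungs.

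Windows of RefSeq promoters (mouse GRCm38.p6, the assembly behind mm10), each running from 250 bases before to 50 bases after a start site, were at hand for 25 of the 32 members. CCAAT, the box bound by NF-Y, a known partner of SREBPs, was searched for on both strands and was found in 20 of the 25 members (80%), against 42.1% of the 16781 genes of the count table that have a window. It was present in 14 of the 15 sterol enzymes with a window (93.3%), in 4 of the 5 SREBP genes (80%) and in 2 of the 5 fatty acid enzymes (40%). TCACNCCAC, a form of the sterol regulatory element, was found in 1 of the 25 (4%), against 1.44% of the 16781 genes. The 4 windows printed belong to members that carry the results below: Hmgcs1 and Idi1, which were lower in experiment 2 than in experiment 1, and Lss and Elovl6, which were lower in Het-NTD fibroblasts. Capitals mark CCAAT on either strand and the sterol element, whose match in the Hmgcs1 window begins 137 bases before the start site. The Elovl6 window held neither, and a match is a description of the letters only.
Hmgcs1 (chr13:119690101-119690400, plus strand): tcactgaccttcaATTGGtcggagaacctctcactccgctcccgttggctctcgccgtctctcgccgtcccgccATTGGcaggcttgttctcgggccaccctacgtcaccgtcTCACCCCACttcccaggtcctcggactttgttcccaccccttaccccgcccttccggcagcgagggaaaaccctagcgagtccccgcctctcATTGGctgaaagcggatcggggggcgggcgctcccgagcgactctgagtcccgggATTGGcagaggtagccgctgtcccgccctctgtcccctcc
Idi1 (chr13:8885356-8885655, plus strand): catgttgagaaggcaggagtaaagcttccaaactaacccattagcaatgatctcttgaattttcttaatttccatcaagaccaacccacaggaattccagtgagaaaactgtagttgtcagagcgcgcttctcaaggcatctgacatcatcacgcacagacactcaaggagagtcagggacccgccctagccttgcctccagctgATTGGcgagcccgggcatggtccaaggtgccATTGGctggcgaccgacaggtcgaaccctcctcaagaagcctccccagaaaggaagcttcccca
Lss (chr10:76531355-76531654, plus strand): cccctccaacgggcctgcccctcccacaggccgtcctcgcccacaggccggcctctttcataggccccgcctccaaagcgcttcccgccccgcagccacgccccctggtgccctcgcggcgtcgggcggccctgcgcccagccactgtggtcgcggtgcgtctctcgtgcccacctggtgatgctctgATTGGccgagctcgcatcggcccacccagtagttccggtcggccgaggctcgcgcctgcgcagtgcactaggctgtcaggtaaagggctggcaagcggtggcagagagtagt
Elovl6 (chr3:129532136-129532435, plus strand): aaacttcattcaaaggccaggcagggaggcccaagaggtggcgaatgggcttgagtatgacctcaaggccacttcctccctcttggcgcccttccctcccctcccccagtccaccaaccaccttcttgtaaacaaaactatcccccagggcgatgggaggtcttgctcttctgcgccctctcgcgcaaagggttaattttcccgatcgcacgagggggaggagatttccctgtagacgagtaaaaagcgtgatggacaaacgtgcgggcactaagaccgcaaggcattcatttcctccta

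To compare genes with each other, counts were set per kilobase of exon and of library size (RPKM), scaled over all 27 libraries. In cultured fibroblasts the fatty acid desaturase Scd2 had the highest level of the 32 in every group, with group means between 285 and 386 RPKM. The median sterol enzyme lay between 23.01 RPKM in Het-NTD and 27.001 RPKM in WT of experiment 1, and the median SREBP gene between 28.4 RPKM in KO and 32.6 RPKM in Het. Over the 7 fibroblast groups the means of a member spanned a median of 1.27-fold. The 5 SREBP genes spanned 1.08-fold to 1.15-fold, fatty acid enzymes 1.22-fold to 1.66-fold and Stard4 1.53-fold, and the widest span of a sterol enzyme was 1.96-fold. The highest of the 7 fibroblast group means fell in WT of experiment 1 for 15 members, and the lowest in Het-NTD for 14. Tm7sf2 and Fdft1 share 12.1% and 18.3% of their exonic length with Vps51 and Ctsb, so part of their counts is uncertain. Vps51 lies on the same strand as Tm7sf2, and Ctsb on the other strand from Fdft1, and the kit does not keep strand.

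**Figure D1:**
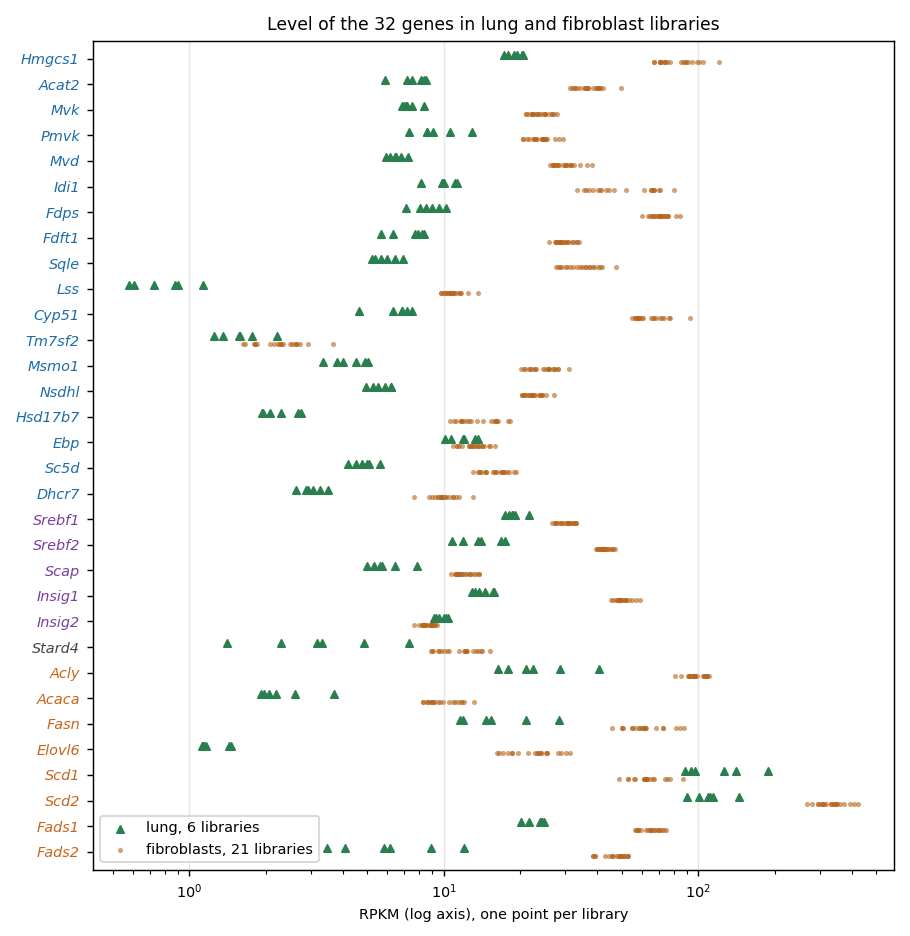
Level of each of the 32 genes in every library, in RPKM on a log axis, with the 6 lung libraries as green triangles and the 21 fibroblast libraries as brown points. Lung lies below every fibroblast library for 28 genes and above for 1, Scd1, and overlaps for 3. The share of all genes separated in this way is not given. Of 16364 genes tested, 75.6% were called between WT lung and WT fibroblasts of experiment 2.

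Between tissues all 32 members were called. In WT lung, 30 of the 32 members were lower than in WT fibroblasts of experiment 2 and 2 were higher by edgeR's quasi-likelihood test, where 75.6% of 16364 genes were called (34.1% lower, 41.5% higher). The median log2 change of the members was -1.84, beside 0.14 over all genes tested. All 18 sterol enzymes were lower in lung, with a median of -2.04, as were 7 of 8 fatty acid enzymes, 4 of 5 SREBP genes and Stard4. Tissue, growth in culture and library set cannot be told apart in this comparison, and neither can fewer cells of a type and less RNA per cell.

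Elovl6, which lengthens palmitate to stearate and lies at chr3:129532355-129638495 of GRCm38, had 1.46, 1.14 and 1.12 RPKM in WT lungs, against 21.5, 18.6 and 23.4 RPKM in WT fibroblasts. The lung level was a fraction of 0.0582 (95% interval 0.0465 to 0.0727, log2 change -4.10, SE 0.15, edgeR adjusted p = 9.20e-10) of the fibroblast level, the lowest ratio of any member. Lss, which closes squalene epoxide into lanosterol, had 0.881, 0.902 and 0.730 RPKM in WT lungs, against 10.8, 10.1 and 10.6 RPKM in WT fibroblasts, at a ratio of 0.0792 (95% interval 0.0567 to 0.110). Its log2 change was -3.66 (edgeR adjusted p = 3.66e-08). The next lowest ratio was 0.122, for Cyp51.

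Steps before squalene were also low in lung. Hmgcs1, which makes HMG-CoA, had 20.5, 19.4 and 18.8 RPKM in WT lungs, against 75.4, 74.3 and 73.4 RPKM in WT fibroblasts (log2 change -1.94, SE 0.084, edgeR adjusted p = 3.06e-09). Mvd, which decarboxylates mevalonate diphosphate, had 6.40, 6.80 and 6.14 RPKM in WT lungs, against 29.9, 31.3 and 31.5 RPKM in WT fibroblasts (log2 change -2.27, SE 0.093, edgeR adjusted p = 2.09e-09). The 3 lung values of each gene lay within a narrow band far below the 3 fibroblast values. Fdps, which builds farnesyl diphosphate, had 8.48, 10.2 and 8.97 RPKM in WT lungs, against 69.6, 65.9 and 70.4 RPKM in WT fibroblasts (log2 change -2.91, SE 0.12, edgeR adjusted p = 2.47e-09).

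In the squalene and lanosterol steps, Sqle, the squalene epoxidase, had 5.69, 6.92 and 5.97 RPKM in WT lungs, against 31.4, 33.4 and 34.1 RPKM in WT fibroblasts (log2 change -2.43, SE 0.11, edgeR adjusted p = 4.04e-09). Cyp51, the lanosterol demethylase, had 6.85, 7.17 and 6.82 RPKM in WT lungs, against 57.9, 54.8 and 56.2 RPKM in WT fibroblasts (log2 change -3.03, SE 0.15, edgeR adjusted p = 8.92e-09). Idi1, the isopentenyl diphosphate isomerase, acts before squalene. It had 11.2, 11.1 and 9.98 RPKM in WT lungs, against 40.4, 41.1 and 46.5 RPKM in WT fibroblasts (log2 change -2.0002, SE 0.11, edgeR adjusted p = 1.32e-08). Not every enzyme of the chain was far apart: the sterol reductase Tm7sf2 had a log2 change of -0.63 (edgeR adjusted p = 0.0234) and the isomerase Ebp one of -0.31 (edgeR adjusted p = 0.0391). Both calls depended on single libraries. The edgeR adjusted p of Ebp was 0.0691 without fibroblast WT 1, 0.0872 without fibroblast WT 2, 0.0741 without fibroblast WT 3, 0.150 without lung WT 1, 0.0559 without lung WT 2 and 0.0531 without lung WT 3, and 0.0595 with the replicate number as a block. That of Tm7sf2 was 0.0718 without fibroblast WT 2, 0.0569 without fibroblast WT 3, 0.0789 without lung WT 1 and 0.0535 without lung WT 3.

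The stearoyl-CoA desaturases, which put the double bond into oleate, went opposite ways. Scd1, at chr19:44394455-44407879, had 140.3, 88.4 and 127 RPKM in WT lungs, against 55.8, 48.7 and 52.9 RPKM in WT fibroblasts, at a ratio of 2.24 (95% interval 1.54 to 3.24, log2 change 1.16, SE 0.24, edgeR adjusted p = 0.00104). Its neighbour and paralog Scd2, at chr19:44293674-44306864, had 109, 101 and 111 RPKM in WT lungs, against 308, 268 and 279 RPKM in WT fibroblasts, at a ratio of 0.371 (95% interval 0.299 to 0.461, log2 change -1.43, SE 0.14, edgeR adjusted p = 2.70e-06). Scd1 was thus the single member whose 6 lung libraries, between 88.4 and 189 RPKM, all lay above the 21 fibroblast libraries, between 48.7 and 86.9 RPKM. How reads shared by the paralogs were assigned is not given in the sources used here.

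Among the regulators, Srebf1 had 18.5, 17.98 and 18.7 RPKM in WT lungs, against 30.8, 27.5 and 27.7 RPKM in WT fibroblasts (log2 change -0.65, SE 0.085, edgeR adjusted p = 2.59e-05). Srebf2 had 16.8, 14.001 and 13.6 RPKM in WT lungs, against 42.6, 39.7 and 42.2 RPKM in WT fibroblasts (log2 change -1.50, SE 0.15, edgeR adjusted p = 3.29e-06). The log2 change of Srebf2 was the larger of the pair in size, and in lung Srebf1 had the higher level per length. The Insig pair split: Insig1 had 14.5, 13.8 and 15.6 RPKM in WT lungs, against 53.3, 48.7 and 51.98 RPKM in WT fibroblasts (log2 change -1.82, SE 0.089, edgeR adjusted p = 7.49e-09). Insig2 had 10.2, 9.35 and 10.1 RPKM in WT lungs, against 8.89, 8.42 and 8.02 RPKM in WT fibroblasts (log2 change 0.21, SE 0.081, edgeR adjusted p = 0.0326). That small rise of Insig2 was not called in several fits, with edgeR adjusted p = 0.0753 without fibroblast WT 2, 0.113 without fibroblast WT 3, 0.0847 without lung WT 1 and 0.0785 without lung WT 3, and 0.0594 with the replicate number as a block.

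The 18 further SREBP pathway genes that were listed went mostly the same way: 13 were lower in WT lung, 1 was higher and 4 were not called, beside 34.1% lower and 41.5% higher among all genes. Aacs, the acetoacetyl-CoA synthetase, had a log2 change of -2.75 (edgeR adjusted p = 9.02e-10). With them, all 11 alveolar type 2 markers and all 9 adipocyte markers were higher in WT lung, and all 8 proliferation genes and 6 of 8 fibroblast markers were lower. In WT fibroblasts of experiment 2, 4 of these 11 and 3 of these 9 were at 0 in all 3 libraries. Markers that passed the low-count filter through the lungs alone could only be higher there. The part of these cell types and of growth in the result was not tested.

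In fibroblasts labelled Het, members as a whole were called about as often as all genes. Of the 8 fatty acid enzymes 4 were higher, and no sterol enzyme was called. By edgeR's quasi-likelihood test 5 members were higher and 1 was lower than in WT of experiment 2, where 16.5% of 14314 genes were called (7.89% higher, 8.61% lower). The higher members were Acly, Scd1, Scd2, Fads1 and Srebf1, and the lower one was Stard4. None of the 18 sterol enzymes passed (12 members of the whole list had an unadjusted p under 0.05, and DESeq2 called 8 members). The share of all genes called by DESeq2 is not given. Of the sterol enzymes 12 had a log2 change below 0 (48.9% of all genes), with a median of -0.07, and of the fatty acid enzymes 6 had one above 0 (51.1%), with a median of 0.14, beside 0.00 for all 32 members. In 9 members the 3 Het values lay above the 3 WT values (17.1% of all genes) and in 3 below (16.8%).

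Acly, which splits citrate into cytosolic acetyl-CoA and lies at chr11:100476353-100528000, had 543, 536 and 536 CPM in the libraries labelled Het, against 467, 414 and 435 CPM in WT. The groups were apart, with a ratio of 1.23 (95% interval 1.15 to 1.31, log2 change 0.30, SE 0.044, edgeR adjusted p = 0.00106). Scd2 had 1827, 1754 and 1824 CPM in the libraries labelled Het, against 1614, 1409.6 and 1466 CPM in WT. It too showed no overlap, at a ratio of 1.20 (95% interval 1.11 to 1.30, log2 change 0.27, SE 0.051, edgeR adjusted p = 0.00472). Scd1 had 297, 290.3 and 293 CPM in the libraries labelled Het, against 262, 229.5 and 249 CPM in WT (log2 change 0.25, SE 0.06, edgeR adjusted p = 0.0147). Fads1, the delta-5 desaturase of polyunsaturated fatty acids, had 319, 312 and 321 CPM in the libraries labelled Het, against 300.3, 261 and 276 CPM in WT (log2 change 0.19, SE 0.048, edgeR adjusted p = 0.0208). The call of Acly and that of Scd2 were kept whichever of the 6 libraries was left out. The edgeR adjusted p of Scd1 was 0.0515 without WT 2 and 0.050002 without Het 3, and that of Fads1 was 0.0699 without WT 2, 0.0555 without WT 3, 0.0597 without Het 1 and 0.0802 without Het 3. Fitted to the Het and WT libraries alone, Fads1 was not called (edgeR adjusted p = 0.0859).

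Srebf1 had 174, 181 and 177 CPM in the libraries labelled Het, against 167, 149 and 150.2 CPM in WT, without overlap (log2 change 0.19, SE 0.045, edgeR adjusted p = 0.0138). Its adjusted p in edgeR was 0.0513 without WT 2, 0.0537 without Het 2 and 0.0508 without Het 3, and 0.0673 in a fit to the Het and WT libraries alone. Srebf2 had 319, 299 and 314 CPM in the libraries labelled Het, against 293, 275 and 291 CPM in WT, also without overlap, and did not pass (log2 change 0.12, SE 0.04, edgeR adjusted p = 0.0660). Stard4, which carries sterol between membranes, had 48.8, 48.5 and 47.7 CPM in the libraries labelled Het, against 64.7, 54.05 and 56.3 CPM in WT, all Het values below the WT values (log2 change -0.27, SE 0.085, edgeR adjusted p = 0.0483). Its call was the weakest, with an edgeR adjusted p of 0.133 without WT 1, 0.0739 without WT 3, 0.1004 without Het 1, 0.109 without Het 2 and 0.130 without Het 3, of 0.0719 with the replicate number as a block and of 0.0521 in the fit to those libraries alone. Insig1 had 147, 149 and 147 CPM in the libraries labelled Het, against 158, 145 and 155 CPM in WT (log2 change -0.05, SE 0.049, edgeR adjusted p = 0.543). Insig2 had 28.1, 30.9 and 29.9 CPM in the libraries labelled Het, against 29.6, 28.2 and 26.8 CPM in WT (log2 change 0.07, SE 0.058, edgeR adjusted p = 0.442). Both Insig genes overlapped between the groups.

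Of the 18 further SREBP pathway genes 1 was higher in Het and 1 lower, fewer than the 16.5% called among all genes. Slc25a1, which exports citrate from mitochondria, had a log2 change of 0.23 (edgeR adjusted p = 0.0107), and Me1, the malic enzyme that supplies NADPH, one of -0.21 (edgeR adjusted p = 0.0200). Other genes moved with the label as well. The 15 macrophage markers summed to 81.4, 12.4 and 30.1 CPM in the libraries labelled Het, against 210.5, 191 and 232 CPM in WT, and 10 of the 15 were called lower. No marker was at 0 in all libraries of either group. The 8 proliferation genes summed to 1471, 1524 and 1498 CPM in Het, against 1849.5, 1836 and 1897 CPM in WT, with 6 of 8 called lower. The 8 fibroblast markers summed to 51044, 48844 and 53367 CPM in Het, against 47388, 45083 and 37431 CPM in WT, without overlap, and 1 of 8 was called higher. The part of the proliferation and fibroblast markers in the result was not tested. With a macrophage score in the fit as a covariate, a setting chosen after seeing the data, no member was called, and Acly had an edgeR adjusted p of 0.0581. The fitted log2 changes of the 6 members were then 0.33 for Acly, 0.29 for Scd2, 0.22 for Scd1, 0.19 for Fads1, 0.17 for Srebf1 and -0.39 for Stard4. Without the covariate they were 0.30, 0.27, 0.25, 0.19, 0.19 and -0.27 in the same order. The groups accounted for 85.0% of that score's variance over the 12 libraries.

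**Figure D2:**
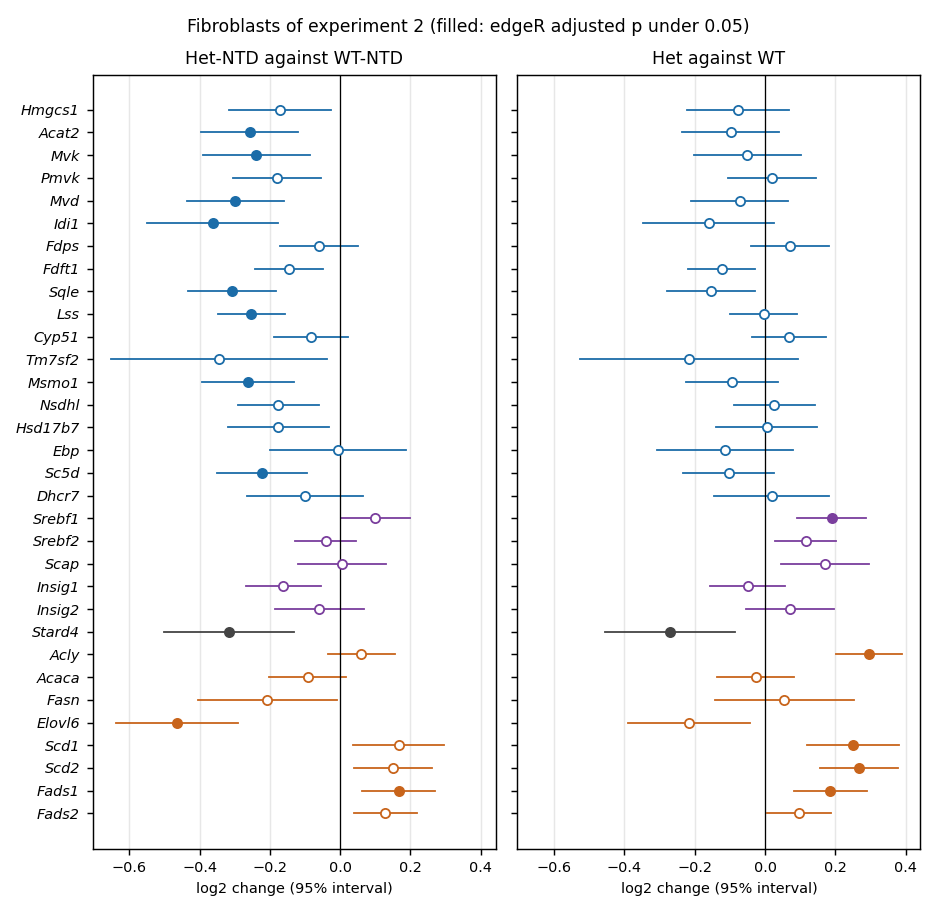
Log2 change of each of the 32 genes with its 95% interval, Het-NTD against WT-NTD on the left and Het against WT on the right, in fibroblasts of experiment 2, with filled points at an edgeR adjusted p under 0.05. All 18 sterol enzymes lie left of 0 for Het-NTD, and 4 fatty acid enzymes are filled right of 0 for Het.

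Where both groups carried the NTD label, 8 of the 18 sterol enzymes were lower in Het-NTD. In the libraries labelled Het-NTD 10 members were lower and 1 was higher than in WT-NTD by edgeR's quasi-likelihood test, where 11.5% of 14314 genes were called (6.24% lower, 5.24% higher). The lower ones were the 8 sterol enzymes, Stard4 and Elovl6, and the higher one was Fads1. All 18 sterol enzymes had a log2 change below 0, as did 49.1% of all genes, with a median of -0.20. The 3 Het-NTD values lay below the 3 WT-NTD values in 17 members (15.8% of all genes) and above in 5 (16.3%). The 5 above, a number near the share of all genes, were Srebf1, Scd1, Scd2, Fads1 and Fads2, and only Fads1 of them was called.

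Elovl6 had 103, 115 and 100.5 CPM in the libraries labelled Het-NTD, against 147, 142 and 150.03 CPM in WT-NTD, at a ratio of 0.725 (95% interval 0.643 to 0.818, log2 change -0.46, SE 0.08, edgeR adjusted p = 0.00338). Lss, at chr10:76531588-76557138, had 104, 101 and 105 CPM in the libraries labelled Het-NTD, against 121, 119 and 129.8 CPM in WT-NTD, at a ratio of 0.840 (95% interval 0.786 to 0.897, log2 change -0.25, SE 0.044, edgeR adjusted p = 0.00341). Both were separated without overlap and kept their call whichever of the 6 libraries was left out. Sqle had 148, 154 and 153 CPM in the libraries labelled Het-NTD, against 171, 192 and 200.1 CPM in WT-NTD, at a ratio of 0.808 (95% interval 0.741 to 0.881, log2 change -0.31, SE 0.057, edgeR adjusted p = 0.00496). Mvd had 50.3, 49.2 and 47.1 CPM in the libraries labelled Het-NTD, against 53.4, 61.3 and 65.5 CPM in WT-NTD, at a ratio of 0.813 (95% interval 0.739 to 0.895, log2 change -0.30, SE 0.064, edgeR adjusted p = 0.0107). These calls were also kept whichever library was left out, though the WT-NTD libraries were themselves spread.

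Msmo1, the methylsterol monooxygenase, had 119.5, 128 and 123 CPM in the libraries labelled Het-NTD, against 147, 144 and 153 CPM in WT-NTD (log2 change -0.26, SE 0.06, edgeR adjusted p = 0.0154). Idi1, at chr13:8885501-8892451, had 113, 131 and 123 CPM in the libraries labelled Het-NTD, against 146, 151 and 176 CPM in WT-NTD (log2 change -0.36, SE 0.086, edgeR adjusted p = 0.0186). Acat2, which condenses acetyl-CoA at the head of the chain, had 79.7, 84.4 and 78.3 CPM in the libraries labelled Het-NTD, against 89.7, 96.7 and 103 CPM in WT-NTD (log2 change -0.26, SE 0.064, edgeR adjusted p = 0.0216). None of the 3 overlapped, and each call was lost without certain libraries. The edgeR adjusted p of Msmo1 was 0.0755 without Het-NTD 1, 0.0525 without Het-NTD 3 and 0.0576 without WT-NTD 3. That of Idi1 was 0.0876 without Het-NTD 1, 0.0560 without Het-NTD 3 and 0.0643 without WT-NTD 3. That of Acat2 was 0.0865 without Het-NTD 1, 0.0815 without Het-NTD 3, 0.0602 without WT-NTD 2 and 0.0890 without WT-NTD 3.

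Sc5d, the lathosterol desaturase, had 64.5, 68.4 and 61.6 CPM in the libraries labelled Het-NTD, against 73.03, 75.1 and 78.8 CPM in WT-NTD (log2 change -0.22, SE 0.059, edgeR adjusted p = 0.0307). The remaining calls lay close to the threshold, at an edgeR adjusted p of 0.0332 for Stard4, 0.0423 for Fads1 and 0.0468 for the mevalonate kinase Mvk. The edgeR adjusted p of Sc5d was 0.104 without Het-NTD 1, 0.117 without Het-NTD 3, 0.0721 without WT-NTD 2 and 0.111 without WT-NTD 3. For Stard4 it was 0.114 without Het-NTD 1, 0.0924 without Het-NTD 2, 0.0882 without Het-NTD 3, 0.102 without WT-NTD 2 and 0.125 without WT-NTD 3, and 0.0556 with the replicate number as a block. For Mvk it was 0.127 without Het-NTD 1, 0.0781 without Het-NTD 2, 0.159 without Het-NTD 3, 0.116 without WT-NTD 2 and 0.163 without WT-NTD 3. For Fads1 it was above the threshold whichever of the 6 libraries was left out, between 0.0642 and 0.151, and 0.0539 with the block.

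The regulators did not pass. Srebf1 had 180.3, 177 and 172 CPM in the libraries labelled Het-NTD, against 166, 161 and 167 CPM in WT-NTD (log2 change 0.10, SE 0.045, edgeR adjusted p = 0.184). Srebf2 had 295, 282 and 289.5 CPM in the libraries labelled Het-NTD, against 304, 291 and 296 CPM in WT-NTD (log2 change -0.04, SE 0.04, edgeR adjusted p = 0.576). Srebf1 lay wholly above WT-NTD and Srebf2 overlapped it. Insig1, itself a target of SREBPs, had 145, 148 and 147 CPM in the libraries labelled Het-NTD, against 153, 163 and 176 CPM in WT-NTD (log2 change -0.16, SE 0.049, edgeR adjusted p = 0.0529). Insig2 had 27.8, 27.5 and 28.99 CPM in the libraries labelled Het-NTD, against 30.3, 29.5 and 28.04 CPM in WT-NTD (log2 change -0.06, SE 0.058, edgeR adjusted p = 0.583). The stearoyl-CoA desaturases did not pass either. Scd2 had 1848, 1894 and 1808 CPM in the libraries labelled Het-NTD, against 1599, 1644 and 1758 CPM in WT-NTD (log2 change 0.15, SE 0.051, edgeR adjusted p = 0.0811), and Scd1 had 295, 316 and 293 CPM in the libraries labelled Het-NTD, against 249, 265 and 291 CPM in WT-NTD (log2 change 0.17, SE 0.06, edgeR adjusted p = 0.0983).

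Of the 18 further SREBP pathway genes 3 were lower in Het-NTD and none was higher, beside 6.24% lower and 5.24% higher among all genes. Of the 3, Me1 had a log2 change of -0.22 (edgeR adjusted p = 0.0201). The 15 macrophage markers summed to 18.4, 13.9 and 19.1 CPM in Het-NTD, against 194, 79.4 and 104 CPM in WT-NTD, and 14 of the 15 were called lower. The 8 proliferation genes summed to 1548, 1676 and 1591 CPM in Het-NTD, against 1638, 1816 and 1905 CPM in WT-NTD, and 4 of 8 were called lower. The 8 fibroblast markers summed to 53442, 50758 and 50223 CPM in Het-NTD, against 41246, 49118 and 47488 CPM in WT-NTD, without overlap, and 1 of 8 was called higher. The 9 adipocyte markers summed to 8.24, 9.39 and 8.02 CPM in Het-NTD, against 4.50, 5.50 and 3.99 CPM in WT-NTD, also without overlap, with 1 of the 3 tested called higher. Of the 9, 2 were at 0 in all Het-NTD libraries and 2 in all WT-NTD libraries, so these low sums come from few of the markers. The part of the proliferation, fibroblast and adipocyte markers was not tested. With the macrophage score as a covariate, a setting chosen after seeing the data, no member was called, and the lowest edgeR adjusted p of the called members was 0.120, for Sqle. The fitted log2 changes were then -0.38 for Sqle, -0.37 for Mvd, -0.43 for Stard4, -0.34 for Elovl6, -0.29 for Idi1 and -0.17 for Lss, against -0.31, -0.30, -0.32, -0.46, -0.36 and -0.25 without the covariate. For Acat2, Mvk, Msmo1, Sc5d and Fads1 they were -0.22, -0.21, -0.16, -0.20 and 0.17, against -0.26, -0.24, -0.26, -0.22 and 0.17. Calls shared by the Het-NTD and the Het comparison, which have no library in common, were 2, Fads1 and Stard4, each in the same direction, out of 11 and 6.

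**Figure D3:**
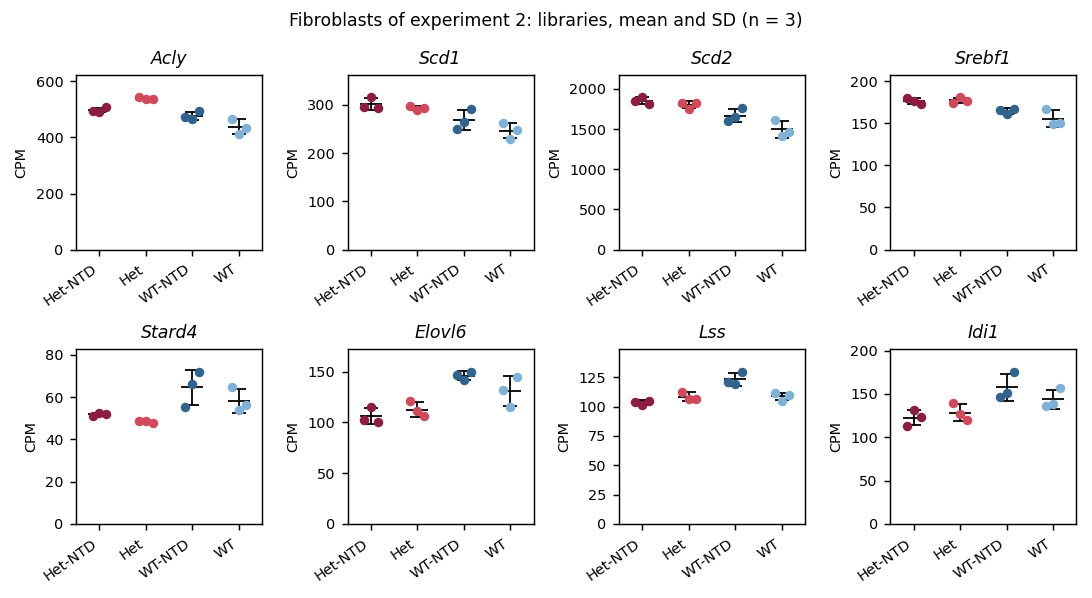
CPM of 8 genes in each of the 12 fibroblast libraries of experiment 2, by group, with the mean and SD of 3 libraries. Acly is highest in the 3 Het libraries, and Elovl6 and Lss are higher in the 3 WT-NTD libraries than in the 3 Het-NTD libraries.

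Within a genotype no member was called between libraries with and without the NTD label. Between WT-NTD and WT 0 members were called by edgeR, as were 0 by DESeq2, with 9 at an unadjusted p under 0.05, where 0.0140% of 14314 genes were called. All 32 members had a log2 change above 0 (50.5% of all genes), with a median of 0.11. Lss had 121, 119 and 129.8 CPM in the libraries labelled WT-NTD, against 111, 105 and 109.8 CPM in WT (log2 change 0.18, SE 0.044, edgeR adjusted p = 0.654), with a ratio of 1.13 (95% interval 1.06 to 1.21). Nsdhl, a sterol dehydrogenase, had 66.8, 64.8 and 69.5 CPM in the libraries labelled WT-NTD, against 57.03, 55.9 and 61.1 CPM in WT (log2 change 0.21, SE 0.053, edgeR adjusted p = 0.654). Fdps had 294, 307 and 332 CPM in the libraries labelled WT-NTD, against 281, 268 and 285 CPM in WT (log2 change 0.16, SE 0.051, edgeR adjusted p = 0.654). These 3 and Pmvk, the phosphomevalonate kinase, lay wholly above WT, a position held by 4.48% of all genes. WT-NTD 3 held the highest of the 12 values in 19 of the 32 members, and the median log2 change was 0.07 without it.

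Between Het-NTD and Het 0 members were called by edgeR, with 3 at an unadjusted p under 0.05, and 0 by DESeq2, where 0.0140% of genes were called. Srebf2 had 295, 282 and 289.5 CPM in the libraries labelled Het-NTD, against 319, 299 and 314 CPM in Het (log2 change -0.10, SE 0.04, edgeR adjusted p = 0.751). Acly had 493, 492 and 507 CPM in the libraries labelled Het-NTD, against 543, 536 and 536 CPM in Het (log2 change -0.11, SE 0.044, edgeR adjusted p = 0.751). Of the 32 members 23 had a log2 change below 0 (49.5% of all genes). Srebf2 and Acly were 2 of 6 members wholly below Het (8.15%), and Fads2, the delta-6 desaturase, was 1 of 3 wholly above it (8.16%), with 169, 169 and 168 CPM in the libraries labelled Het-NTD, against 162, 156 and 156 CPM in Het (log2 change 0.09, SE 0.042, edgeR adjusted p = 0.790). The difference between the NTD effect in Het and in WT was tested as an interaction: edgeR called 0 members and 0% of genes, with 8 members at an unadjusted p under 0.05, and DESeq2 called 0 members. In 30 of 32 members that difference was below 0 (50.0% of all genes), with a median of -0.14. Lss had an interaction of -0.25 (unadjusted p = 0.00167 in edgeR), Acly -0.23 (0.00232) and Srebf2 -0.16 (0.0158), each on the log2 scale with an edgeR adjusted p of 0.892. The same term is the difference between the Het-NTD and the Het comparison, so that the different members called in them were not shown to respond differently.

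**Figure D4:**
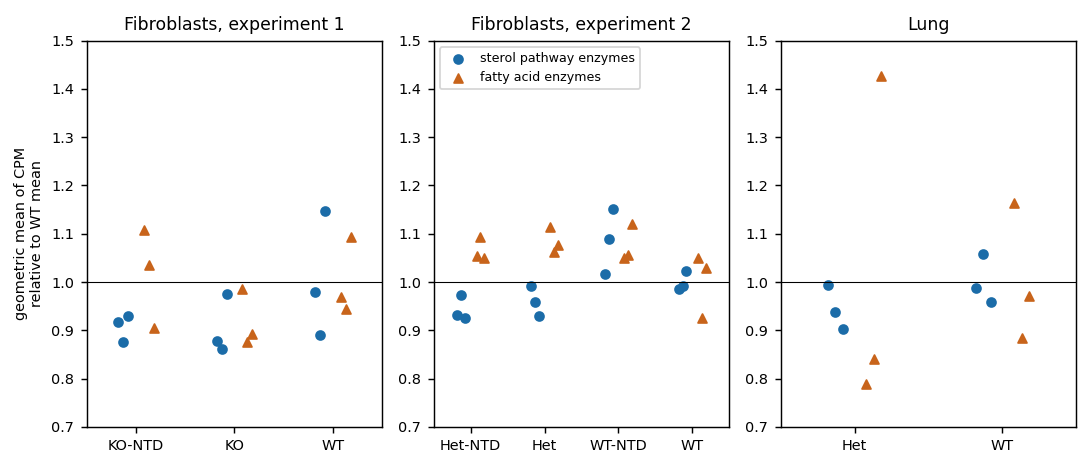
Geometric mean of CPM of the 18 sterol enzymes (circles) and the 8 fatty acid enzymes (triangles) in each library, relative to the WT mean of the same set of libraries. In experiment 2 the sterol enzymes lie between 0.925 and 0.973 in Het-NTD and between 1.02 and 1.15 in WT-NTD, and lung Het 3 stands at 1.43 for fatty acid enzymes.

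In experiment 1 no member was called for the libraries labelled KO. Against WT, edgeR called 0 of the 32 and DESeq2 0, with 4 at an unadjusted p under 0.05, where 0.447% of 14551 genes were called (0.124% higher, 0.323% lower). Ratios ran between 0.795 and 1.06, and all 18 sterol enzymes had a log2 change below 0 (48.1% of all genes), with a median of -0.17. The 95% intervals of the 32 ratios together reached from 0.525 to 1.28. The ratios of Het against WT in experiment 2, where members were called, ran between 0.829 and 1.23. The median SE of the log2 changes was 0.092 for KO against WT and 0.058 for Het against WT, so changes of that size could be missed in experiment 1. Scd2 had 1607, 1505 and 1509.5 CPM in the libraries labelled KO, against 1992, 1697 and 2125 CPM in WT, at a ratio of 0.795 (95% interval 0.669 to 0.945, log2 change -0.33, SE 0.11, edgeR adjusted p = 0.282). Fads2 had 120.1, 118 and 121 CPM in the libraries labelled KO, against 147, 129.97 and 151 CPM in WT (log2 change -0.25, SE 0.093, edgeR adjusted p = 0.334). Msmo1 had 154, 132 and 148 CPM in the libraries labelled KO, against 159.6, 153 and 176 CPM in WT (log2 change -0.17, SE 0.072, edgeR adjusted p = 0.396). Of these, Scd2 and Fads2 did not overlap, a position below WT held by 8.87% of all genes.

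Scd1 had 301, 278 and 288 CPM in the libraries labelled KO, against 342, 288 and 389.99 CPM in WT (log2 change -0.23, SE 0.11, edgeR adjusted p = 0.470). The 5 SREBP genes had edgeR adjusted p-values of 0.747 or more. Srebf1 had 152, 151 and 144 CPM in the libraries labelled KO, against 159.7, 138 and 149.5 CPM in WT (log2 change 0.00), and Srebf2 had 278, 269 and 293 CPM in the libraries labelled KO, against 283, 269.9 and 301 CPM in WT (log2 change -0.02). Insig1 had 141, 133 and 139 CPM in the libraries labelled KO, against 141, 129 and 161 CPM in WT (log2 change -0.06), and Insig2 had 30.4, 26.5 and 24.9 CPM in the libraries labelled KO, against 29.7, 27.9 and 28.5 CPM in WT (log2 change -0.08). One control library stood above the rest: WT 3 held the highest of the 9 values in 23 of 32 members. The sterol enzymes stood at 0.877, 0.861 and 0.974 of the WT mean in KO and at 0.979, 0.890 and 1.15 in WT. The median log2 change of the 32 members was -0.15, and -0.06 without WT 3. Macrophage markers summed to 13.4, 424 and 291 CPM in KO, against 109, 64.1 and 83.3 CPM in WT, and 2 of 8 proliferation genes were called lower. None of the 18 further SREBP pathway genes was called.

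For KO-NTD, edgeR and DESeq2 called 0 members against KO (0.00687% of 14551 genes called by edgeR) and 0 against WT (0.440%), with 0 at an unadjusted p under 0.05 in either. The lowest edgeR adjusted p was 0.714 against KO and 0.459 against WT. Against KO, Scd2 had 2031, 1878 and 1555 CPM in the libraries labelled KO-NTD, against 1607, 1505 and 1509.5 CPM in KO (log2 change 0.24), Fads2 had 153, 136 and 118 CPM in the libraries labelled KO-NTD, against 120.1, 118 and 121 CPM in KO (log2 change 0.18), and Fads1 had 308, 289 and 254 CPM in the libraries labelled KO-NTD, against 259, 259 and 262 CPM in KO (log2 change 0.13). All 8 fatty acid enzymes had a log2 change above 0 against KO (48.0% of all genes). In Scd2, Fads2 and Fads1 the third KO-NTD library lay within or below the KO values. Against WT, Acat2 had 95.4, 84.9 and 91.3 CPM in the libraries labelled KO-NTD, against 94.9, 95.9 and 116 CPM in WT (log2 change -0.18, SE 0.088, edgeR adjusted p = 0.459). Hmgcs1 had 415, 385 and 381 CPM in the libraries labelled KO-NTD, against 443, 397 and 509 CPM in WT (log2 change -0.19), and the isomerase Ebp had 23.8, 24.005 and 27.8 CPM in the libraries labelled KO-NTD, against 26.9, 27.5 and 33.6 CPM in WT (log2 change -0.22). Srebf1 in KO-NTD stood at 158, 162 and 143 CPM and Srebf2 at 308, 293 and 266 CPM. Insig1 stood at 146, 147 and 137 CPM, Insig2 at 26.5, 28.7 and 27.1 CPM and Scd1 at 345, 336 and 281 CPM. Against WT, 25 of the 32 had a log2 change below 0 (49.2%).

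In lungs labelled Het no member was called either, and the spread between lungs was the main feature of the values. By edgeR and by DESeq2 0 members were called against WT, with 0 at an unadjusted p under 0.05, where 0% of 15933 genes were called. Every member overlapped between the groups (1.96% of all genes lay wholly above WT and 2.28% wholly below), and the median log2 change was -0.05. Idi1 had 34.9, 42.5 and 41.3 CPM in the libraries labelled Het, against 47.7, 47.01 and 42.4 CPM in WT, at a ratio of 0.866 (95% interval 0.710 to 1.06, log2 change -0.21, SE 0.12, edgeR adjusted p = 1). Fdps had 49.3, 41.5 and 35.996 CPM in the libraries labelled Het, against 43.2, 51.9 and 45.8 CPM in WT (log2 change -0.15), and Ebp had 38.5, 37.4 and 29.5 CPM in the libraries labelled Het, against 28.3, 33.4 and 33.5 CPM in WT (log2 change 0.15). The median SE of the 32 log2 changes was 0.18 in lung, against 0.058 for the Het comparison in fibroblasts, so that changes of the size called there were not detectable in lung.

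One lung stood out by group of genes. Lung Het 3 held the highest of the 6 values in 6 of the 8 fatty acid enzymes, in Stard4 and in 4 of the 5 SREBP genes, and the lowest in 7 of the 18 sterol enzymes. It also held the highest value in the sterol enzymes Lss, Hsd17b7 and Sc5d, and the lowest in the fatty acid enzyme Fads1. The share of all genes that were highest or lowest in that lung is not given. Fads2 had 14.02, 16.5 and 47.5 CPM in the libraries labelled Het, against 35.6, 23.4 and 24.4 CPM in WT. Stard4 had 9.62, 15.6 and 49.1 CPM in the libraries labelled Het, against 33.01, 21.5 and 22.5 CPM in WT, and its ratio of 0.966 (95% interval 0.378 to 2.47) had the widest interval. Acly had 105, 115 and 258 CPM in the libraries labelled Het, against 183, 135 and 143 CPM in WT, and Fasn, the fatty acid synthase, had 159, 155 and 374 CPM in the libraries labelled Het, against 278, 195 and 203 CPM in WT. In all 4 genes the third Het lung lay above the WT lungs and the other two lay below them. Cyp51 ran the other way, with 40.5, 33.8 and 24.5 CPM in the libraries labelled Het, against 36.6, 38.4 and 36.5 CPM in WT. As a set, fatty acid enzymes stood at 0.789, 0.841 and 1.43 of the WT mean in Het and at 1.16, 0.885 and 0.971 in WT, while sterol enzymes stood at 0.995, 0.937 and 0.902 in Het and at 0.988, 1.06 and 0.958 in WT.

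Scd1 had 559, 579 and 1108 CPM in the libraries labelled Het, against 831, 525 and 751 CPM in WT, and Scd2 had 605, 759 and 952 CPM in the libraries labelled Het, against 719.6, 669 and 735 CPM in WT. Srebf1 had 120.1, 131 and 146 CPM in the libraries labelled Het, against 126, 123 and 128 CPM in WT, and Srebf2 had 94.99, 104 and 149.9 CPM in the libraries labelled Het, against 146, 122 and 119 CPM in WT. Of these 4, each was highest in Het 3. Insig1 had 48.7, 49.9 and 58.4 CPM in the libraries labelled Het, against 54.3, 51.8 and 58.5 CPM in WT, and Insig2 had 38.9, 40.5 and 43.1 CPM in the libraries labelled Het, against 42.8, 39.4 and 42.3 CPM in WT. The 9 adipocyte markers were also highest in the third Het lung: they summed to 70.99, 31.6 and 143 CPM in Het, against 30.2, 66.04 and 42.6 CPM in WT. The fatty acid enzymes stood at 0.789, 0.841 and 1.43 of the WT mean in Het and at 1.16, 0.885 and 0.971 in WT. The other lungs were not in the same order in both sets of values. Fabp4 had the largest mean of the 9 markers, with 38.0 CPM in Het and 21.1 CPM in WT, so the sum leans on that gene. The part of adipocytes was not tested. The 11 alveolar type 2 markers summed to 29538, 29200 and 20849 CPM in Het, against 23454, 22565 and 27039 CPM in WT, lowest in the third Het lung. Most of that sum was Sftpc, with a mean of 19087 CPM in Het and 17350 CPM in WT, so the sum says little of the other markers. Some of those were steady, such as Lamp3 (399 ± 34.1 CPM in Het, 393 ± 50.0 CPM in WT) and Muc1 (243 ± 24.7 and 243 ± 25.7 CPM), and others were spread. Abca3, a lipid transporter of surfactant, averaged 239 ± 187 CPM in Het and 209 ± 58.6 CPM in WT, Lpcat1, which makes surfactant lecithin, 150.3 ± 121 CPM in Het and 151 ± 36.1 CPM in WT, and the phosphate transporter Slc34a2 1308 ± 635 CPM in Het and 1243 ± 228 CPM in WT (SD, n = 3 each). Over all genes, the chi-square of counts per degree of freedom was 202 between Het 1 and 3, 206 between Het 2 and 3 and 48.7 between Het 1 and 2, against 66.9 to 108 in pairs of WT lungs. The part of alveolar type 2 cells was not tested. Without lung Het 3 the median log2 change of the 32 members was -0.10. When the Het effect in lung was set against that in fibroblasts, edgeR and DESeq2 called 0 members (1.12% of 16364 genes by edgeR), with 0 at an unadjusted p under 0.05. With each of the 12 libraries left out in turn, edgeR called between 0 and 2 members. The 2 were Acly and Fads2, both lower in lung, without lung Het 3, the lung that stood highest in both genes. These calls rest on leaving out that lung, and the share of all genes called in that fit is not given.

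**Figure D5:**
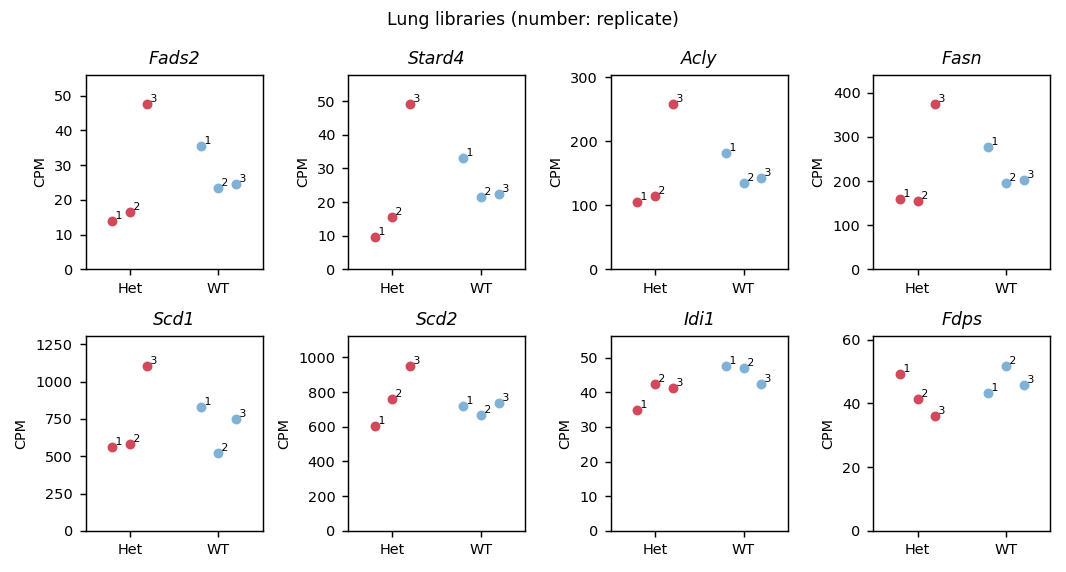
CPM of 8 genes in each lung library, Het left of WT, with the replicate number beside each point. The third Het lung lies above the WT lungs for Fads2, Stard4, Acly, Fasn, Scd1 and Scd2 and not for Idi1 and Fdps.

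WT fibroblasts of the 2 experiments, which carry the same genotype label, also differed. Members were called about as often as all genes. In experiment 2, 9 members were lower than in experiment 1 and 0 were higher by edgeR's quasi-likelihood test, where 26.6% of 14046 genes were called (14.3% lower, 12.3% higher). The lower ones were 6 of 18 sterol enzymes and 3 of 8 fatty acid enzymes, and 0 of 5 SREBP genes passed. In 13 members the 3 values of experiment 2 lay below those of experiment 1 (22.5% of all genes). Idi1 had 40.4, 41.1 and 46.5 RPKM in experiment 2, against 65.5, 66.6 and 80.5 RPKM in experiment 1, at a ratio of 0.611 (95% interval 0.523 to 0.713, log2 change -0.71, SE 0.096, edgeR adjusted p = 0.00268). Hmgcs1 had 75.4, 74.3 and 73.4 RPKM in experiment 2, against 104, 94.5 and 121 RPKM in experiment 1, at a ratio of 0.709 (95% interval 0.616 to 0.816, log2 change -0.50, SE 0.088, edgeR adjusted p = 0.00671). Neither gene overlapped between the experiments, and both kept their call whichever of the 6 libraries was left out.

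Hsd17b7, Cyp51, Sqle, Scd1 and Scd2 were also lower in experiment 2. Hsd17b7, a sterol ketoreductase, had 10.99, 12.004 and 12.8 RPKM in experiment 2, against 15.7, 15.4 and 18.2 RPKM in experiment 1 (log2 change -0.44, SE 0.087, edgeR adjusted p = 0.00973). Cyp51 had 57.9, 54.8 and 56.2 RPKM in experiment 2, against 76.6, 70.96 and 92.5 RPKM in experiment 1 (log2 change -0.49, SE 0.096, edgeR adjusted p = 0.00983). Scd1 had 55.8, 48.7 and 52.9 RPKM in experiment 2, against 75.5, 64.4 and 86.9 RPKM in experiment 1 (log2 change -0.51, SE 0.11, edgeR adjusted p = 0.0139). These 3 calls were kept whichever of the 6 libraries was left out. Scd2 had 308, 268 and 279 RPKM in experiment 2, against 394, 339.6 and 424 RPKM in experiment 1 (log2 change -0.42, SE 0.093, edgeR adjusted p = 0.0156). Sqle had 31.4, 33.4 and 34.1 RPKM in experiment 2, against 41.2, 38.5 and 47.4 RPKM in experiment 1 (log2 change -0.34, SE 0.084, edgeR adjusted p = 0.0217). The edgeR adjusted p of Scd2 was 0.0521 without experiment 1 WT 1 and 0.0581 without experiment 1 WT 3, and that of Sqle was 0.0580 without experiment 1 WT 3 and 0.0679 without experiment 2 WT 1.

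Acaca, the acetyl-CoA carboxylase, had 9.17, 8.60 and 9.49 RPKM in experiment 2, against 9.89, 11.4 and 11.7 RPKM in experiment 1 (log2 change -0.25, SE 0.075, edgeR adjusted p = 0.0424). Msmo1 was called at an edgeR adjusted p of 0.0447. The edgeR adjusted p of Acaca was 0.120 without experiment 1 WT 2, 0.136 without experiment 1 WT 3, 0.0919 without experiment 2 WT 1, 0.0994 without experiment 2 WT 2 and 0.0535 without experiment 2 WT 3 and 0.0847 with the replicate number as a block, and that of Msmo1 was 0.0840 without experiment 1 WT 1, 0.0621 without experiment 1 WT 2, 0.141 without experiment 1 WT 3, 0.118 without experiment 2 WT 1 and 0.104 without experiment 2 WT 2. Without WT 3 of experiment 1, 5 members were called in place of 9, and the share of all genes called in that fit is not given. The 5 SREBP genes had edgeR adjusted p-values of 0.444 or more. Srebf1 had 30.8, 27.5 and 27.7 RPKM in experiment 2, against 30.6, 26.7 and 28.9 RPKM in experiment 1 (log2 change 0.02), and Srebf2 had 42.6, 39.7 and 42.2 RPKM in experiment 2, against 42.6, 41.1 and 45.7 RPKM in experiment 1 (log2 change -0.03). The log2 change of Insig1 was 0.04 and that of Insig2 -0.07. Of the 18 further SREBP pathway genes 4 were lower in experiment 2 and 1 was higher, beside 14.3% lower and 12.3% higher among all genes. Of the 15 macrophage markers 14 were higher in experiment 2. The labels give nothing on what separated the experiments, so culture, library set and sequencing cannot be told apart.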

How the data were processed

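The authors deposited raw counts per gene and library in 1 table. Per the submitters' processing notes Bowtie2 2.2.6 and TopHat2 2.0.14 were used with build mm10, and featureCounts 1.4.6 of the Subread package; parameters are not given in the sources used here. Per the labels' protocols, TruSeq RNA v2 libraries, a kit that does not keep strand, were made from about 200 ng RNA. From the counts, edgeR 4.0.16 (R 4.3.3, limma 3.58.1) gave robust quasi-likelihood F tests, two-sided, after filterByExpr and TMM scaling, with Benjamini-Hochberg adjustment over all genes tested and a threshold of 0.05. The fits were experiment 1 (9 libraries), experiment 2 (12), lung (6), lung with experiment 2 for Het and WT (12), and WT fibroblasts of both experiments (6). CPM comes from each fit, and RPKM from TMM over 27 libraries and the exon length of GENCODE M21. Bounds cover 95% intervals of the fitted changes. DESeq2 1.42.0, other scaling, no filter, left-out libraries, a replicate block and a macrophage covariate were alternatives. In the closest pair of replicates the chi-square per degree of freedom was 5.65, so none was counted as a repeat. Members and lists were chosen with earlier results of these data known. In each comparison the text names the members past the threshold, up to 8 by adjusted p, or the 3 with the lowest p; the pairs of Srebf, Insig and Scd genes always; and up to 4 called genes of another list, some of which are not reported here. The main edgeR fit was tested on simulated data for a comparison between 2 groups in each set of libraries. The interaction terms, DESeq2 and the other alternatives were not tested that way. Of simulated 1.25-fold changes the fit recovered 2% for KO against WT, 28% for Het against WT in fibroblasts and 0% in lung. Of 2-fold changes it recovered 64%, 58% and 40% in the same order.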

Additional observations from a re-analysis of the deposited data

How the results depend on the processing

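Of 949 results for single genes under an alternative, 847 kept their direction and their side of the threshold, 102 kept only their direction and 0 reversed. Fitted to the 2 groups alone, Het against WT had 3 members called in place of 6, without Srebf1, Stard4 and Fads1. With the macrophage covariate, added after seeing the data, Het against WT and Het-NTD against WT-NTD each had 0, with fitted log2 changes of 0.33 for Acly and 0.22 for Scd1 in the first and -0.38 for Sqle and -0.17 for Lss in the second; the cause was not tested. DESeq2 called 8 members for Het against WT, 16 for Het-NTD against WT-NTD, 31 for WT lung against fibroblasts and 13 for experiment 2 against experiment 1. For KO against WT, DESeq2 called 479 genes and edgeR 65. Apart from that, the share of all genes called under an alternative is not given in this section. The counts of called members under the alternatives can therefore not be set against all genes. When each library was left out in turn, called members ran between 2 and 8 for Het against WT, 4 and 15 for Het-NTD against WT-NTD, 0 and 2 for the difference of the Het effects between lung and fibroblasts, 29 and 31 for WT lung against fibroblasts and 5 and 9 for experiment 2 against experiment 1; in the other comparisons 0 were called throughout. With another scaling (RLE) the median of all genes in lung against fibroblasts was 0.19 and that of the members -1.80, and Fads1 in Het-NTD had an edgeR adjusted p of 0.0512.

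Same-numbered libraries did not deviate together in every pair (correlations -0.48 to 0.61 in experiment 1, -0.21 to 0.45 in experiment 2, -0.34 to 0.12 in lung), so the replicate numbers were not taken to pair samples. A replicate block gave 7 called members for Het against WT, 10 for Het-NTD against WT-NTD, 30 for WT lung against fibroblasts, 9 for experiment 2 against experiment 1 and 0 elsewhere. Depth was no limit for these genes, whose lowest count was 230; 3 libraries a group limit what can be seen, most of all in lung.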

Other observations

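Of 12 glyceride genes tested, 3 were higher in fibroblasts labelled Het than in WT and 2 lower by edgeR's quasi-likelihood test, beside 7.89% higher and 8.61% lower among all 14314 genes. Plin2, which coats lipid droplets, had 138 ± 11.8 CPM in Het and 74.9 ± 13.003 CPM in WT (SD, n = 3 each; log2 change 0.88, edgeR adjusted p = 0.0110). Mgll, the monoglyceride lipase, had 11.9 ± 2.58 CPM in Het and 29.2 ± 2.14 CPM in WT (SD, n = 3 each; log2 change -1.30, edgeR adjusted p = 4.99e-04). The acyl-CoA synthetase Acsl4 had a log2 change of 0.50 and the acyltransferase Agpat3 one of -0.54. In Het-NTD against WT-NTD, Plin2 (0.75) was again called higher, and Mgll (-1.15) and Agpat3 (-0.58) lower.

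Of 12 sterol efflux and LXR genes, 2 were higher and 1 was lower in Het than in WT, where 16.5% of all genes were called. Ch25h, which makes 25-hydroxycholesterol, an oxysterol that blocks SREBP release, had a log2 change of -1.17 in Het against WT and of -1.10 in Het-NTD against WT-NTD. Npc2, a lysosomal sterol carrier, had 0.19 and 0.17 in the same comparisons, Soat1, which esterifies cholesterol, 0.53 in the first, and Npc1 0.21 in the other. Of 16 fatty acid oxidation genes, 4 were higher and 2 lower in Het than in WT, among them Acadm (-0.45), Ppard (0.40), Ehhadh (0.69) and Acads (0.32). Macrophage markers were lower in both comparisons, and their part in these values was not tested.

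Of all 16364 genes 75.6% were called between WT lung and WT fibroblasts (41.5% higher, 34.1% lower), and the counts of these lists are given beside that share. In WT lung 11 of 16 fatty acid oxidation genes were higher and 2 lower than in WT fibroblasts, with log2 changes of 2.02 for the thiolase Acaa2, 1.57 for Hadh, 0.87 for Acadl and -1.97 for Cpt1c. Of 14 glyceride genes tested 10 were higher and 0 lower, led by the lipases Lipe (3.48), Mgll (1.78) and Pnpla2 (1.57). Only 12 of that list were tested within fibroblasts of experiment 2. Genes that passed the low-count filter through the lungs alone could only be higher in lung. Of 12 efflux and LXR genes 6 were higher and 3 lower, among them Nr1h3 (5.74), Cyp27a1 (4.92), Npc2 (1.38) and Ch25h (-3.71). All counts here are by edgeR's quasi-likelihood test over all genes, and markers of other cell types moved with them.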
